A study of Mus musculus with 2 samples.

Results

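The regions described here are 814 bins of 500 bp on the mouse autosomes whose share of single-cell ATAC-seq fragments was at least 3-fold higher in aged than in young hematopoietic stem cells (HSCs). They were selected on the measured fragments themselves. The genome (mm10) was cut into bins from position 0, each fragment was counted in the bin of its midpoint, and bins with at least 100 fragments over both libraries were kept, which left 143703 tested bins. A bin was called gained where its share of all fragments of the kept cells, with 1 fragment added, was at least 3-fold higher in the aged library. The 814 gained bins are thus 0.566% of tested bins, and since the rule used this contrast nothing is read from that share. By the mirror rule 115 bins, or 0.08%, were lost.

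The study compared chromatin accessibility in HSCs of 10-week-old and 20-month-old C57BL/6 mice. Both groups were sorted from bone marrow in the same way, as cells positive for Sca-1, c-kit and CD150 and negative for lineage markers, IL-7 as the labels write it (the receptor IL-7Rα in the study's methods), CD34, CD48 and Flt3, without treatment. Each age gave 1 droplet library, and the number of mice pooled in each is not stated in the sources used here. Values between ages therefore have no replicate error, no test between ages was possible, and every interval below covers counting error only.

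In ATAC-seq the Tn5 transposase cuts DNA where it is not wrapped in nucleosomes or otherwise protected, so promoters and enhancers stand out as places with many fragments. Enhancers are distal elements bound by transcription factors, and which of them are open differs between cell types and with the history of a cell. AP-1 is a dimer of Fos, Jun and related proteins that is induced by stress and cytokines and binds the sequence TGACTCA. RUNX proteins, among them RUNX1, a factor required for the first HSCs of the embryo, bind TGTGGTT.

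The young library held 4887 kept cells with 50069575 fragments and the aged library 3405 kept cells with 38663214 fragments. The median kept cell had 9890 and 11020 fragments. Of the kept barcodes, 26 occurred in both libraries, and doublets were not removed. The promoters of 16 HSC markers, such as Mecom, Procr and Hlf, had 4.87 fragments per 1000000 kept fragments of the library (FPM) per kb in young and 4.83 in aged HSCs, a ratio of 0.992 (95% exact binomial interval 0.973 to 1.01). Over 10 B cell markers the ratio was 0.921 (0.874 to 0.969), over 10 T or NK cell markers 0.881 (0.841 to 0.922), over 12 neutrophil or monocyte markers 0.974 (0.904 to 1.05), over 10 erythroid markers 0.924 (0.866 to 0.985), over 16 megakaryocyte markers 0.995 (0.971 to 1.02) and over 10 stroma or endothelium markers 1.05 (1.01 to 1.08). No marker promoter was at 0 in either library, and no gained bin lay at a gene of the HSC or other blood cell lists. The tested bins there numbered 570 for HSC, 42 for B cell, 50 for T or NK cell, 45 for neutrophil or monocyte, 31 for erythroid and 128 for megakaryocyte markers, so that at the share of all tested bins, 0.566%, less than 1 would be gained at each list but that of HSC.

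The sequences of the gained bins with the highest ratios are shown first, since these are the members whose level differed most. Each is the reference (GRCm38, which is mm10) over the position with the most Tn5 cut sites in the bin and 75 bp on either side, read 5′ to 3′ on the plus strand and named by the nearest protein-coding gene. Capitals mark every match to the AP-1 letters TGACTCA or to the RUNX letters TGTGGTT on either strand. In this set 2 of the 6 windows, near Pcdh15 and Ptprk, hold an AP-1 match.
Naip6 chr13:100317664-100317814: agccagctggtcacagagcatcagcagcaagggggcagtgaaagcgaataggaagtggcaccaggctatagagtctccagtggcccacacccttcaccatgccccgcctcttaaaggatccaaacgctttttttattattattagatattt
Kcna4 chr2:107231836-107231986: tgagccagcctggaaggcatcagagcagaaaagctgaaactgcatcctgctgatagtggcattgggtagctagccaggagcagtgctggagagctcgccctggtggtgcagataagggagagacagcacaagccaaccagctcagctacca
Ryr2 chr13:11987695-11987845: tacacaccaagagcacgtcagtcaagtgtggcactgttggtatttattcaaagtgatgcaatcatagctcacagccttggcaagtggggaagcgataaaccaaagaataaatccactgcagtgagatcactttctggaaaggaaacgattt
Pcdh15 chr10:74148051-74148201: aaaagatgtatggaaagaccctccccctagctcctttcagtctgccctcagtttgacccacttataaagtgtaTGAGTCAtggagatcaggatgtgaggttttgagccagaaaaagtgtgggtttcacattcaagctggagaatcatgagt
Mfsd1 chr3:67601678-67601828: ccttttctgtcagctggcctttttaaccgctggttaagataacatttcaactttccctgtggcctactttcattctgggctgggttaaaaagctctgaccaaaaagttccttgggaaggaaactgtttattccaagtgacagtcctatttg
Ptprk chr10:27863591-27863741: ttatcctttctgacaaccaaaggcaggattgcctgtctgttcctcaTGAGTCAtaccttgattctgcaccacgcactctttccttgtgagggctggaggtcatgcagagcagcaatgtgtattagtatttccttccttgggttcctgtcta

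The gained bins in places 2 to 6 by aged fragments show what the most accessible members look like. Of these 5 windows, that near Ros1 holds an AP-1 match, which lies just outside the bin and is not counted for it below, and that near Fer a RUNX match.
Ros1 chr10:52133458-52133608: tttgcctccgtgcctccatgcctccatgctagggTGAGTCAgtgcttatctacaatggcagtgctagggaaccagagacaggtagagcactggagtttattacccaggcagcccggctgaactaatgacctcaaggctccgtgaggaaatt
Chac2 chr11:31000142-31000292: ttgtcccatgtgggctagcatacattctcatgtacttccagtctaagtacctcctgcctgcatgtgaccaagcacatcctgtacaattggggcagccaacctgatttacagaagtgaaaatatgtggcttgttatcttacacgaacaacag
Zdhhc25 chr15:88296022-88296172: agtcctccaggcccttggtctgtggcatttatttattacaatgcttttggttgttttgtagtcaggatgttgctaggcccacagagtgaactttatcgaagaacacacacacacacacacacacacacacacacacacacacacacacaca
Slc1a1 chr19:28770661-28770811: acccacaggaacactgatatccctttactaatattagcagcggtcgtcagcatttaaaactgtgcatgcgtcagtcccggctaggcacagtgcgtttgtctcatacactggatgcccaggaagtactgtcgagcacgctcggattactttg
Fer chr17:63684008-63684158: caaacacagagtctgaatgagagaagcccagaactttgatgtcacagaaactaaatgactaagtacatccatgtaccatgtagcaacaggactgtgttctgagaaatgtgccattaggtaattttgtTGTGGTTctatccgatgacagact

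The last windows are the 4 of highest ratio, outside those above, that hold an AP-1 match within the window, and they were chosen after their values were seen. In them the AP-1 match starts within 62 bp of the centre. The choice required a match inside the window, so nothing is read from this distance. The windows near Adam23 and Trhr hold a RUNX match as well.
Adam23 chr1:63517982-63518132: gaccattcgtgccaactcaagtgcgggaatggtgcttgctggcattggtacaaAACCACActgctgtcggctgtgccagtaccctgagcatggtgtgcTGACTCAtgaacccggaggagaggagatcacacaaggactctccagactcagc
Gm826 chr2:160225494-160225644: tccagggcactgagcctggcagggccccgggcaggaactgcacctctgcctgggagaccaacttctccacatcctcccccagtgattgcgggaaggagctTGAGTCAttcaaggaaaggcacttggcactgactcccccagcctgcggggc
Trhr chr15:44176065-44176215: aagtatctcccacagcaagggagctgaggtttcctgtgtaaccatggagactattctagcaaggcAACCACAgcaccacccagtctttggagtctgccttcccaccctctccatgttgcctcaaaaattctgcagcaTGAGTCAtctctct
Gsr chr8:33673020-33673170: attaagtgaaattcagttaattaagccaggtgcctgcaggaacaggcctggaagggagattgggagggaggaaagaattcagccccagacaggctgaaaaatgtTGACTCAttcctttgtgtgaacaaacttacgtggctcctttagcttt

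Gained bins had a low level of accessibility in young HSCs and an ordinary one in aged HSCs. Together they held 33436 young and 111068 aged fragments, which is 6.68 and 28.7 of every 10000 kept fragments and a ratio of 4.30 (4.25 to 4.35). A gained bin had a median of 34 young fragments (range 0 to 166) and 112 aged fragments (range 71 to 473). The median level was 0.679 FPM in young and 2.90 FPM in aged HSCs, while the median tested bin had 2.64 and 2.72 FPM. In the aged library 53.1% of tested bins lay below the gained median, and in the young library 0.307% did. These values chose the bins and describe them only.

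**Figure D1:**
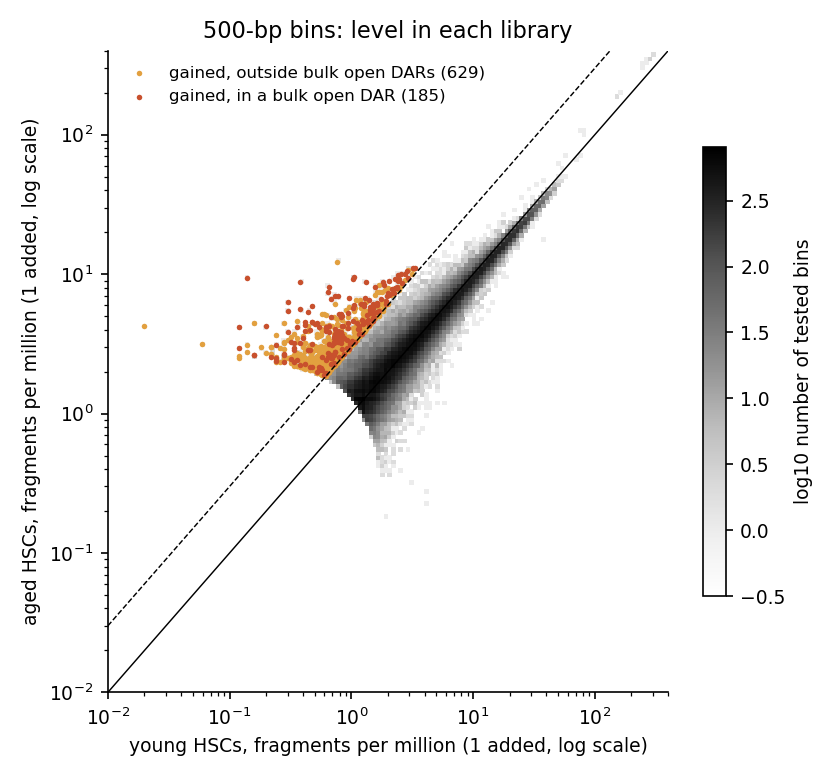
FPM in young (x axis) and aged (y axis) HSCs, with 1 fragment added and log scales, for 500-bp bins. Grey squares are numbers of tested bins, the solid line marks equal shares and the dashed line a ratio of 3. The 185 gained bins in bulk open DARs (red) and the 629 outside them (orange) lie above the dashed line at levels below those of the most accessible tested bins.

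The median log2 ratio of the gained bins was 1.94, with the middle 50% between 1.73 and 2.34. A ratio from 3 to under 4 was found in 447 bins, from 4 to under 8 in 284, from 8 to under 16 in 64, and of 16 or more in 19. The bins nearest to the limit inside it had ratios of 3.003, 3.006 and 3.006 (46 young and 108 aged, 83 and 194, and 55 and 129 fragments), and those nearest outside 2.999, 2.997 and 2.997 (113 and 263, 34 and 80, and 34 and 80 fragments). Ratios of 2.8 to 3 were found in 178 bins and of 3 to 3.2 in 130, so the list ends within a continuous range. At the fragment minimum 11 gained bins had exactly 100 fragments, for example 18 young and 82 aged, 20 and 80, and 27 and 73, and 14 bins with 99 fragments met the ratio, for example 21 and 78, 18 and 81, and 29 and 70.

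Fragments in gained bins came from many cells. A gained bin had a fragment in a median of 34 young cells (0.696% of kept cells) and 107 aged cells (3.14%), and at the most in 152 young and 407 aged cells. No aged cell gave more than 5 fragments to a gained bin, and the largest share that a single aged cell took of a bin's aged fragments was 4.11%. No pair of fragments of the same library and bin had the same ends. The deposited files already merge read pairs into fragments, so nothing is read from this. After each kept cell had been thinned to 3000 fragments, the median cell held 2 fragments in gained bins in young and 9 in aged HSCs. The middle 90% of cells ran from 0 to 5 in young and from 3 to 16 in aged HSCs. Of the aged cells 95.9%, and of the young cells 31.5%, lay above the young median, and 16 aged and 945 young cells had none. The distributions overlapped, since 78.8% of aged cells lay above the 95th percentile of young cells and the rest did not. These same cells chose the bins, so their separation follows from the rule and is only a description.

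**Figure D2:**
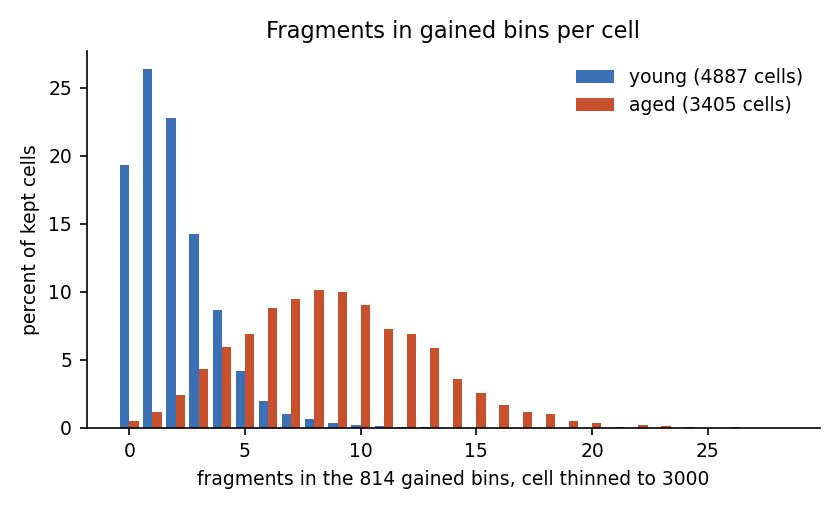
Percent of kept cells (y axis) by the number of fragments in the 814 gained bins after thinning each cell to 3000 fragments (x axis), in young (blue, 4887 cells) and aged (red, 3405 cells) HSCs. Young cells centre on 2 and aged cells on 9 fragments, with an overlap between the groups.

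The spread between cells was wider than counting alone gives. The variance of the thinned counts was 1.59 times their mean in young and 1.77 times in aged cells, where independent draws would give a variance near the mean. Counts on even-numbered chromosomes correlated with those on odd-numbered chromosomes across cells of the same library with r = 0.197 in young (4887 cells) and r = 0.272 in aged cells (3405 cells). These points share a library and a fixed depth, and the thinned counts had r = -0.013 and r = -0.028 with the depth of the cell before thinning. Neither value was computed for other tested bins, so the spread is not shown to be particular to gained bins.

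Because the same fragments chose and described the bins, the ratio was also read in cells that had no part in the choice. When bins were chosen with the same ratio and a minimum of 50 fragments in the cells with an odd place in the sorted list of barcodes, 939 bins were chosen, with a median log2 ratio of 1.93. In the other cells their median was 1.77, that of all tested bins -0.019, and 937 of the 939 had a higher share in aged cells. The ratio was 3 or more in 585 of them (62.3%). With the roles of the cells exchanged, 884 bins were chosen and their median in the other cells was 1.78. These are cells of the same 2 libraries, so they say nothing of the spread between mice.

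Pooled over all gained bins, a narrow and low peak was present in young HSCs as well. The young library had 1.64 FPM per kb in the bins, 3.51 times its density of 0.467 at 10 to 50 kb from their centres. The aged library had 7.06 FPM per kb, 14.0 times its density of 0.504 there. For tested bins over 1 kb from a transcription start site (TSS) these contrasts were 7.17 and 7.36, and the density at 10 to 50 kb was 0.929 and 0.899 FPM per kb, so gained bins lay in surroundings with fewer fragments. Bin by bin, the young level was at or under 2 times its own surroundings in 190 gained bins and over 5 times in 426, and the aged level was over 5 times in 718.

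**Figure D3:**
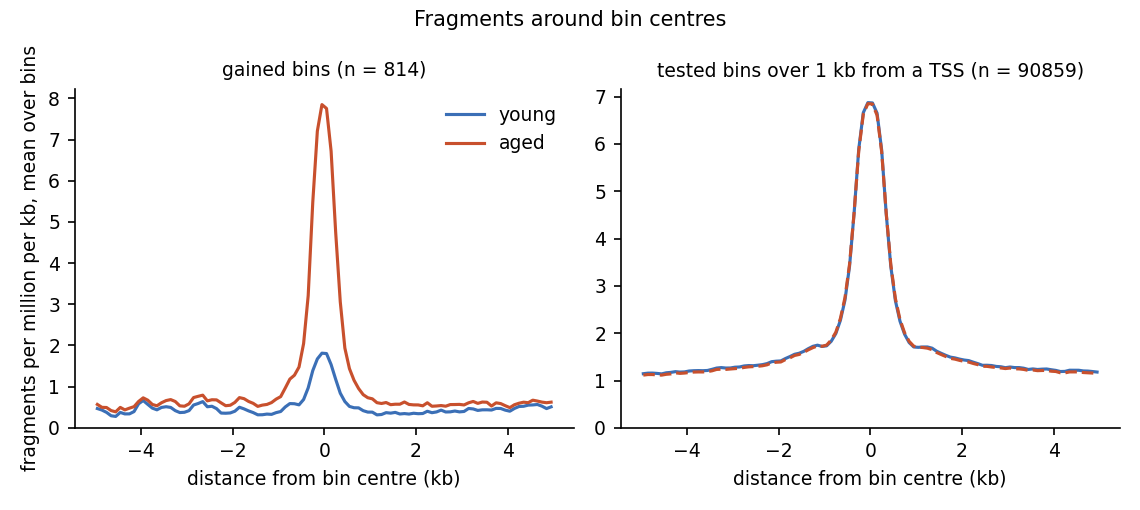
Mean FPM per kb (y axis) in steps of 100 bp by distance from the bin centre in kb (x axis), in young (blue) and aged (red) HSCs, for the 814 gained bins (left) and the 90859 tested bins over 1 kb from a TSS (right). The aged peak at gained bins is several times the young one and both fall to near the surroundings within 1 kb, while the 2 libraries overlie each other on the right.

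The difference declined with distance from the bins. The aged to young ratio was 2.44 (2.41 to 2.47) at 250 to 1000 bp from the centre, 1.46 (1.45 to 1.48) at 1 to 3 kb, 1.17 (1.168 to 1.181) at 3 to 10 kb and 1.08 (1.077 to 1.082) at 10 to 50 kb, with all gained bins left out of the flanks. At 1 to 3 kb from tested bins over 1 kb from a TSS it was 0.983. Among the gained bins the ratio at 1 to 3 kb was 2 or more around 304 bins, 3 or more around 120 and at most 1 around 91. The 118 tested bins that touched a gained bin without being gained had a median log2 ratio of 1.19, against -0.026 over all tested bins. Fragments shorter than the DNA of a nucleosome core made up 70.9% of young and 71.2% of aged fragments in gained bins, against 69.5% and 65.7% in all tested bins.

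Gained bins lay mostly away from promoters. Of the 814 bins, 107 (13.1%, 10.9 to 15.7) had their centre within 1 kb of an annotated TSS, against 36.8% (36.5 to 37.0) of tested bins. Within 1 kb of a protein-coding TSS were 75 bins (9.21%, against 32.8%). Lost bins were also fewer there: 24 of 115 (20.9%, 13.9 to 29.4) lay within 1 kb of any TSS. Near a protein-coding TSS were 17 lost bins (14.8%, 8.85 to 22.6). A share below that of tested bins was thus not particular to gained bins. The median distance to a TSS of any gene was 10594 bp, against 2930 bp for tested bins, and to a protein-coding TSS 29686 bp against 4993 bp. Over 100 kb from any protein-coding TSS lay 210 gained bins (25.8%, 22.8 to 28.9), against 6.62% of tested bins. The bin centre was in an intron in 395, between genes in 351, in an untranslated region in 30, in a noncoding exon in 21 and in a coding exon in 17 gained bins. For tested bins the intergenic share was 33.0%, below the 43.1% (39.7 to 46.6) of gained bins, and the intronic shares were 49.99% and 48.5%.

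The base composition differed as well. The median GC content was 45.8% in gained and 49.8% in tested bins, and among bins over 1 kb from a TSS 45.2% and 47.8%. The median number of CpGs was 6 and 8. Repeat-masked sequence took a median of 10.7% of gained and 10.4% of tested bins. Every 50-mer of 727 gained bins (89.3%) occurred once in the reference, against 87.1% of every 50th tested bin, and 30 gained bins (3.69%, against 4.31%) had over 10% of repeated 50-mers, where reads can be assigned to the wrong copy.

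Gained bins were found on every autosome, at 0.367% of tested bins on chromosome 19 to 0.804% on chromosome 18. They formed 750 separate stretches, of which 686 were 1 bin and 64 were 2 adjacent bins. Another gained bin lay within 10 kb of 168 of them (20.6%) and within 100 kb of 258 (31.7%). The median distance to the nearest other gained bin was 460000 bp.

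The stretch with the most gained bins in 10 kb lay at chr16:23842501-23845500, 48207 bp from Sst, which encodes the hormone somatostatin, with 4 gained bins, 171 young and 735 aged fragments and a pooled ratio of 5.57. The next, at chr17:44077001-44084000, lay 1562 bp from Enpp5, a membrane protein of the ectonucleotide pyrophosphatase family, and held 4 gained bins with 114 and 410 fragments (4.66). The 4 other tested bins within 5 kb of it had a median log2 ratio of 0.010. Then came 3 gained bins at chr11:3186501-3189500 at Sfi1, a centrosomal protein, with 230 and 620 fragments (3.49) among 14 other tested bins with a median of 0.62. In the bin at chr11:3189001-3189500, 13.1% of 50-mers were repeated in the reference, and its values are uncertain. Another 3 lay at chr7:49318001-49322000 in Nav2, a cytoskeletal protein of growing axons (210 and 580 fragments, 3.58). The last 3 were at chr3:57512001-57516500 in an intron of Wwtr1, which encodes TAZ, a transcriptional co-activator of the Hippo pathway (96 and 528 fragments, 7.12).

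The study also listed regions that were more open (open DARs) or less open (closed DARs) in aged than in young HSCs in bulk ATAC-seq, made from separate libraries of sorted cells. The gained bins were not chosen with those lists. Of the 814 gained bins, 185 (22.7%, 19.9 to 25.8) shared at least 1 bp with an open DAR, against 576 of 143703 tested bins (0.401%, 0.369 to 0.435). None shared sequence with a closed DAR (0%, upper limit 0.452%), against 0.129% of tested bins. Of the 115 lost bins, 3 lay in a closed and 0 in an open DAR.

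The overlap was larger for bins with a higher ratio or more fragments. It held 45 of the 100 bins with the highest ratios, 70 of the first 200 and 116 of the first 400. The median log2 ratio was 2.16 in gained bins inside and 1.90 in those outside open DARs, and the median number of fragments was 196 and 137. Read from the side of the list, 161 of the 426 autosomal open DARs (37.8%) held a gained bin, and 33 of the 426 had no tested bin. Over all 576 tested bins in open DARs, whether gained or not, 564 (97.9%) had a higher share in aged cells, with a median log2 ratio of 1.18, against 18 of 185 (9.73%) and -0.35 in closed DARs. Of all tested bins 46.6% had a higher share in aged cells.

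The study set promoters apart by annotation and sorted the other open DARs by histone marks from CUT&Tag into active enhancers (H3K4me1 and H3K27ac), primed enhancers (H3K4me1 alone) and inactive enhancers (no H3K4me1). A gained bin was held by 7 of 37 autosomal promoter DARs (18.9%), 72 of 187 active enhancers (38.5%), 40 of 90 primed enhancers (44.4%) and 42 of 112 inactive enhancers (37.5%). Only DARs with a tested bin could hold a gained bin, and of these the shares were 18.9%, 40%, 50.6% and 43.3% in the same order. The median log2 ratios of the gained bins in these classes were 1.81, 2.02, 2.16 and 2.28, again in that order. The promoter value rests on 8 bins.

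Of the 24 consensus sequences searched, CNC, which contains the AP-1 letters, and AP-1 had the highest ratios of shares between gained and tested bins over 1 kb from a TSS, 2.09 and 2.08. The letters TGACTCA or their reverse complement occurred in 192 gained bins (23.6%, 20.7 to 26.7), against 10.1% (9.95 to 10.3) of tested bins. Among bins over 1 kb from a TSS the shares were 25.2% (22.0 to 28.5) of 707 gained and 12.1% (11.9 to 12.3) of 90859 tested bins. With GC content held between 40 and 50% they were 26.97% (22.9 to 31.3) and 12.7% (12.4 to 13.005). Within 100 bp of the position of most cut sites, the shares were 20.2% (17.3 to 23.4) and 7.84% (7.67 to 8.02), so the relative difference was larger near the peak of cutting, as in the windows printed for Pcdh15 and Ptprk. At least 2 AP-1 matches were found in 30 gained bins (3.69%), against 0.765% of tested bins.

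Among gained bins the median ratio was similar with and without the letters, but the rule left only ratios of at least 3. The medians below therefore cannot show whether the letters go with the size of the difference. Gained bins with an AP-1 match had a median log2 ratio of 1.92 and those without 1.94, and 21.6% of gained bins inside and 24.2% of those outside open DARs had a match (intervals 15.9 to 28.3 and 20.9 to 27.7). Of the 115 lost bins 9 (7.83%, 3.64 to 14.3) had a match. When all 4181 sequences of 7 letters present in at least 5% of distal gained bins were ranked by the ratio of their shares, a ranking made after the values were seen, TGACTCA came first with 2.08, and ATGAGTC, which overlaps it by 6 letters, second with 2.07. The third, ATTCATA, which does not contain the AP-1 letters, had 2.06, so the order of the first 3 rests on small differences.

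**Figure D4:**
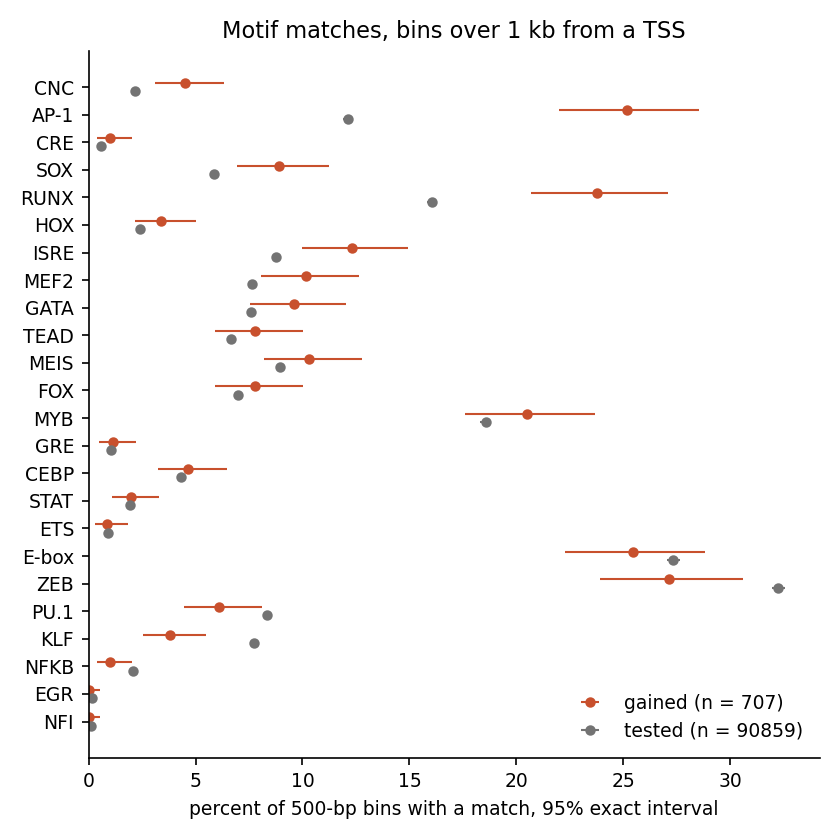
Percent of bins over 1 kb from a TSS with at least 1 match to each of 24 consensus sequences (x axis, 95% exact binomial intervals), for 707 gained (red) and 90859 tested bins (grey), in the order of the ratio of the shares. AP-1 (25.2% and 12.1%) and RUNX (23.8% and 16.1%) lie to the right of their tested share, and ZEB, PU.1 and KLF to the left, where for ZEB and KLF the interval holds the tested share once GC content is held between 40 and 50%.

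Other motifs of blood and stress factors followed. In bins over 1 kb from a TSS, CRE letters, bound by ATF and CREB factors, occurred in 0.990% (0.399 to 2.03) of gained and 0.562% of tested bins, and SOX letters (ACAATGG) in 8.91% (6.92 to 11.3) and 5.87%. Between 40 and 50% GC the SOX shares were 9.66% (7.08 to 12.8) and 6.15%. The SOX difference was smaller near the peak of cutting: the ratio of shares over 1 kb from a TSS was 1.52 in whole bins and 1.36 within 100 bp of the position of most cut sites. In bins over 1 kb from a TSS, RUNX matches occurred in 23.8% (20.7 to 27.1) of gained and 16.1% (15.8 to 16.3) of tested bins, and between 40 and 50% GC in 23.6% (19.7 to 27.8) and 17.99% (17.7 to 18.3). The CNC letters, bound by NRF2 and its relatives and containing the AP-1 letters, occurred in 4.53% and 2.16%. The ISRE, bound by interferon regulatory factors, occurred in 12.3% and 8.77%, but between 40 and 50% GC in 11.0% (8.26 to 14.3) and 10.1% (9.81 to 10.3), where the interval holds the tested share. The letters AGATAAG of GATA factors occurred in 9.62% (7.55 to 12.03) and 7.602%, those of CEBP in 4.67% (3.23 to 6.49) and 4.32%, and those of STAT in 1.98% (1.09 to 3.30) and 1.93%. For these 3 and for CRE the interval holds the tested share. For GATA this depends on the window. Within 100 bp of the position of most cut sites the shares were 6.22% (4.56 to 8.26) and 3.73%. Between 40 and 50% GC they were 6.52% (4.41 to 9.23) and 4.22% there, and both intervals lie above the tested share. The ratio of shares was also higher in this window than in whole bins for TEAD (1.80 and 1.17) and ISRE (1.59 and 1.40). MEF2 letters occurred in 10.2% of gained and 7.66% of tested bins over 1 kb from a TSS, and HOX letters in 3.39% and 2.40%. For MEF2 and HOX the ratio was lower in the window (1.26 and 1.30) than in whole bins (1.33 and 1.41).

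Matches of some motifs had lower shares in gained bins, in part only where GC content was not held. The letters of PU.1, a master regulator of myeloid and B cells, occurred in 5.65% of gained, 6.87% of tested and 19.1% of lost bins, and over 1 kb from a TSS in 6.08% of gained and 8.32% of tested bins. Between 40 and 50% GC the PU.1 shares were 5.39% (3.49 to 7.92) and 8.78%. KLF letters occurred in 3.82% and 7.75% of gained and tested bins over 1 kb from a TSS, but between 40 and 50% GC in 4.04% (2.41 to 6.32) and 4.78%. ZEB letters occurred in 27.2% and 32.3%, and between 40 and 50% GC in 26.5% (22.5 to 30.9) and 29.6%. NFKB letters occurred in 0.990% and 2.06%, and between 40 and 50% GC in 0.674% (0.139 to 1.96) and 1.82%. For KLF, ZEB and NFKB the interval at this GC content holds the tested share. The NFI and EGR letters occurred in no gained bin, which allows up to 0.452%, and in 0.0752% and 0.473% of tested bins. Over 1 kb from a TSS the upper limit of 0.520% holds the tested shares of both, 0.0936% and 0.160%. A match is only a run of letters and does not show that a factor was bound.

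The bin with the highest ratio stood apart from the others. At chr13:100317501-100318000, 77 bp from the TSS of Naip6, a sensor of bacterial proteins in the inflammasome, the young library had 0 fragments and the aged library 163 in 154 cells. The lower end of the exact interval of the ratio was 56.6. The absence extended far beyond the bin. No fragment of a kept young cell lay between chr13:100270193 and 100350711, a stretch of 80.5 kb in which kept aged cells had 351 fragments, 188 of them outside the bin. In flanks of the same length the ratio was 0.969. Among all young barcodes, called or not, no fragment lay in 57.6 kb around the bin. Of 96184 windows of 20 kb with at least 30 aged fragments, 3 had no young fragment, and no window with at least 30 young fragments lacked aged fragments. The Naip genes are close copies of each other, 40.8% of the 50-mers of the bin occur elsewhere in the reference, and the values there are uncertain. A difference in mapping and one in the DNA of the mice cannot be told apart here. Its part in the pooled ratios is 163 of 111068 aged fragments.

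The other bins of highest ratio were distal or intronic, with few young fragments and aged levels of 2.56 to 9.31 FPM. The bin at chr2:107231501-107232000, 58888 bp from Kcna4, a voltage-gated potassium channel, had 6 young and 360 aged fragments (0.120 and 9.31 FPM), a ratio of 66.8 (35.4 to 213), and lay in an active enhancer DAR. The interval, here and below, is that of the counts without the added fragment. An intron of Ryr2, a calcium release channel of muscle and neurons, held 2 and 120 fragments (0.040 and 3.10 FPM) at chr13:11987501-11988000, a ratio of 52.2 (21.05 to 649) that rests on 2 young fragments. With so few young fragments the intervals are wide, and their lower ends were 35.4 and 21.05.

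An intron of Pcdh15, a protocadherin of sensory hair cells, held 5 and 160 fragments at chr10:74148001-74148500, a ratio of 34.7 (17.4 to 129), in a primed enhancer DAR. The intronic bin of Mfsd1, a lysosomal membrane transporter, at chr3:67601501-67602000 had 7 and 171 fragments (27.8, 15.03 to 79.9). A bin 211069 bp from Ptprk, a receptor-type tyrosine phosphatase, at chr10:27863501-27864000 had 5 and 113 fragments (24.6, 12.2 to 91.9) and lay in an inactive enhancer DAR. Both the Pcdh15 and the Ptprk bin are those with AP-1 letters among the windows of highest ratio.

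The remaining 4 of the first 10 had similar ratios. The bin in Tmem132c, a transmembrane protein gene, at chr5:127537501-127538000 lay 509 bp from its TSS, had 18 and 338 fragments (0.360 and 8.74 FPM, ratio 23.1, 15.2 to 41.5) and matches to AP-1, RUNX and GATA letters. A bin 726901 bp from Tbl1xr1, a subunit of nuclear receptor co-repressor complexes, at chr3:21349501-21350000 had 6 and 119 fragments (22.2, 11.5 to 71.4). An intron of Adam23, a metalloprotease-like adhesion protein, at chr1:63518001-63518500 had 5 and 99 fragments (21.6, 10.6 to 80.7). The bin 80486 bp from Nr2f2, the nuclear receptor COUP-TFII, at chr7:70274501-70275000 had 9 and 164 fragments (21.4, 12.1 to 52.5) and lay in a primed enhancer DAR.

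**Figure D5:**
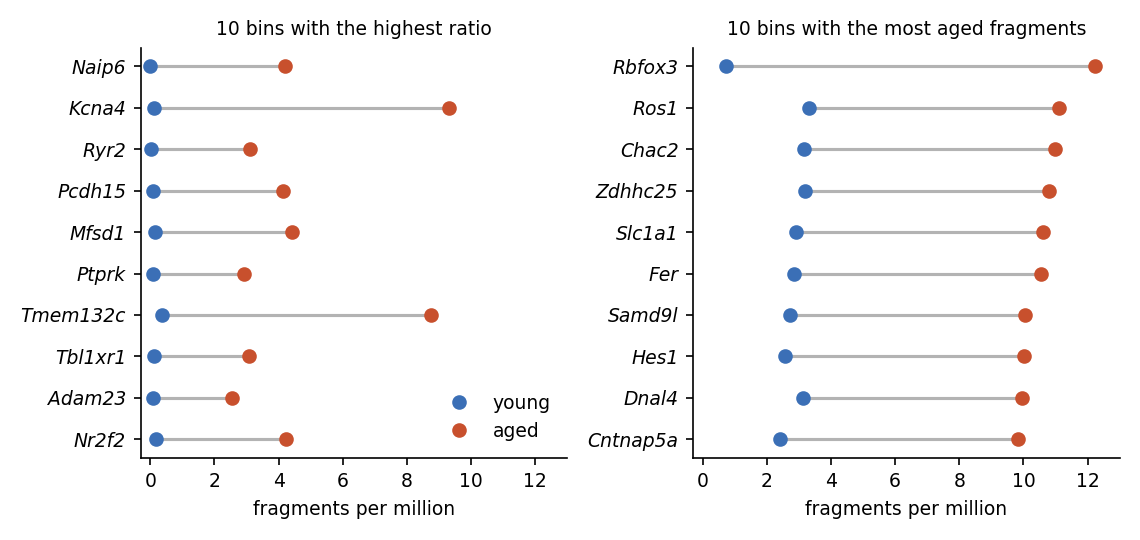
FPM (x axis) in young (blue) and aged (red) HSCs for the 10 gained bins with the highest ratio (left) and the 10 with the most aged fragments (right), named by the nearest protein-coding gene. Bins of highest ratio were near 0 in young cells, and except for that of Rbfox3 (0.739 and 12.2 FPM) the bins with the most aged fragments had 2.42 to 3.32 FPM in young cells.

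Apart from the first, the bins with the most aged fragments had 2.42 to 3.32 FPM in young HSCs, near the 2.64 FPM of the median tested bin. The first lay in an intron of Rbfox3, the neuronal splicing factor also known as NeuN, with 37 young fragments in 34 cells and 473 aged fragments in 407 cells, 11.95% of kept aged cells, and a ratio of 16.2 (11.8 to 23.8). It was in no open DAR. The next 9 had between 121 and 166 young and between 380 and 430 aged fragments, with ratios from 3.18 to 4.04.

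Among those 9, an intron of Ros1, a receptor tyrosine kinase (chr10:52133501-52134000), held 166 and 430 fragments (3.34, 2.798 to 4.04). The bin 81133 bp from Hes1, a Notch target that encodes a repressor (chr16:29983001-29983500), held 128 and 387 fragments (3.90, 3.198 to 4.82), and Hes1 is on the study's list of genes lower in aged HSCs in bulk. A bin 178811 bp from Fer, a cytoplasmic tyrosine kinase (chr17:63684001-63684500), held 143 and 408 fragments (3.68, 3.05 to 4.502). All 3 lay in active enhancer DARs, as did the bins near Chac2 and Samd9l described next, and that near Cntnap5a lay in a primed enhancer DAR.

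The others of the 9 were at a similar level. An intron of Asb3, 13901 bp from Chac2, a glutathione-degrading enzyme (chr11:31000001-31000500), held 159 and 425 fragments. A bin 304051 bp from Zdhhc25, a palmitoyltransferase gene (chr15:88296001-88296500), held 160 and 417, and a bin 64298 bp from Slc1a1, a glutamate transporter (chr19:28770501-28771000), held 146 and 410. The last 3 lay 201755 bp from Samd9l (chr6:3183001-3183500, 137 and 389 fragments), in an intron of Dnal4, a dynein light chain (chr15:79767501-79768000, 156 and 385), and 1645005 bp from Cntnap5a (chr1:114039501-114040000, 121 and 380). The bin near Zdhhc25 lay in an intron of the noncoding gene 4930445N06Rik, and the TSS of Gm42642 was 267 bp from that near Samd9l.

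Of the 75 gained bins within 1 kb of a protein-coding TSS, 10 were named by their aged fragments. After Tmem132c, described above, came Farp1, a guanine nucleotide exchange factor, with 92 young and 324 aged fragments (ratio 4.53, 3.61 to 5.81), and Pcnx2 with 83 and 323 (4.995, 3.95 to 6.49). Cntn1, the neuronal adhesion molecule contactin, had 107 and 303 fragments in a bin 86 bp from its TSS (3.65, 2.93 to 4.62), and Khdrbs2, an RNA-binding splicing regulator, 111 and 284 in a bin 3 bp from its TSS (3.30, 2.65 to 4.16). Acadm, a mitochondrial enzyme of fatty acid oxidation, had 47 and 260 (7.04, 5.23 to 9.99). Sfi1 with 80 and 238, Dnah9, an axonemal dynein, with 75 and 219, Kcnn2, a calcium-activated potassium channel, with 90 and 211, and Gm14137 with 67 and 206 had ratios from 3.02 to 3.94. Of these 10 bins, those of Khdrbs2 and Dnah9 lay in promoter DARs, those of Farp1 and Acadm in active and those of Tmem132c and Cntn1 in inactive enhancer DARs.

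Genes that the study's bulk RNA-seq listed as higher or lower in aged HSCs were set beside the bins, by nearest protein-coding TSS or overlapping gene. Of the gained bins 55 (6.76%) were at 34 of the genes listed as higher, among them Aldh1a1, Klf4, Chrm3 and Kcnb2, against 2.55% of tested bins. These were 55 of the 3667 tested bins at such genes. At genes listed as lower were 3 gained bins (0.369%), near Arrdc3, Hes1 and Insig1, against 1.31% of tested bins. Of those tested bins 0.159% were gained. The median log2 ratio over all tested bins was 0.121 at the genes listed as higher and -0.094 at those listed as lower.

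Genes known to change in aging HSCs, a list of 42, had 21 gained bins at 9 genes, which is 2.58% of the 813 tested bins there, against 0.566% of all tested bins. The median log2 ratio over all tested bins at the 42 genes was 0.11. Of the 9 genes, Aldh1a1, Ehd3, Gda, Plscr2, Ptprk and Wwtr1 are also on the study's list of genes higher in aged HSCs, so the lists are not separate. The list of 42 was written with earlier results of these data known, so its count is a description. Wwtr1 had 7 of the 21, spread over chr3:57486001-57556000, with 320 young and 1152 aged fragments and ratios from 3.28 to 9.39, and 3 of them lay in open DARs. The 4 Wwtr1 bins with the most aged fragments went from 1.92 to 6.44, 0.919 to 5.199, 1.06 to 4.58, and 0.459 to 4.47 FPM. The fifth of the list by aged fragments lay in Exoc6b, a subunit of the exocyst, with 51 and 157 (3.93, 2.89 to 5.58). Pde4b, a cAMP phosphodiesterase, and Ptprk had 3 bins each, Gda, guanine deaminase, and Cavin2, a protein of caveolae, 2 each, and Aldh1a1, a retinaldehyde dehydrogenase, Ehd3 and Plscr2 1 each.

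Genes of neuronal adhesion, channels and receptors had 26 gained bins at 14 of 44 genes, which is 4.30% of 605 tested bins, against 0.566% of all tested bins. The median log2 ratio of the 605 was 0.32. Besides Rbfox3, Kcna4 and Tmem132c, the bins with the most aged fragments were an intron of Kcnb2, a voltage-gated potassium channel, with 18 and 215 fragments (14.7, 9.56 to 26.6) at chr1:15679001-15679500, and the bin 503 bp from the Kcnb2 TSS with 0.779 and 5.15 FPM (6.48, 4.67 to 9.57). Kcnb2 and Dlg2 had 4 bins each, Ctnna2 had 3, Rbfox3, Lsamp, Ntm and Unc5d had 2 each, and Kcna4, Tmem132c, Rbfox1, Grik2, Kcnip4, Tenm2 and Tenm4 had 1 each. Repeated 50-mers made up 17.1% of the Rbfox3 bin of ratio 8.70 and 16.6% of the Ntm bin of ratio 3.48, whose values are uncertain. Ratios reached 19.8 in Rbfox1 and 16.5 in Ctnna2. These genes are long, and the list was written with earlier results of these data known, so its count is a description.

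Receptors and transcription factors of blood had gained bins at shares near or below that of all tested bins. Of 496 tested bins at 33 cytokine receptor genes, 1 (0.202%) was gained, in an intron of Bmpr1a, a BMP receptor, with 22 and 78 fragments (4.45, 2.83 to 7.74). Of 1193 tested bins at 46 genes of stress-responsive and blood transcription factors, 6 (0.503%) were gained, near the 0.566% of all tested bins. They lay near Bach2, a repressor of the CNC family, with 30 and 159 fragments (6.68, 4.62 to 10.5) and 37 and 111 fragments (3.82, 2.66 to 5.80), and in Creb5, an ATF/CREB family factor, where 4 bins had 108 and 331 fragments in all. Among the cell type lists, gained bins were found at Cxcl12 and Kdr of the stroma or endothelium list only, 1 each, which is 2 of 176 tested bins (1.14%, against 0.566% of all tested bins).

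The genes with the most gained bins were Wwtr1 and Adam6a with 7 each, and the 7 nearest to Adam6a lay among the variable (V) gene segments of the immunoglobulin heavy chain locus Igh, from which antibody genes are assembled in B cells. This locus was looked at after the bins were seen. Of the 26 tested bins between the first and last Igh V segment, 7 (26.9%, against 0.566% of all tested bins) were gained, with 220 young and 940 aged fragments, ratios from 3.45 to 11.6 and 4 of them in open DARs. The median log2 ratio over all 26 was 0.68. In 2 of the 7 over 10% of 50-mers were repeated in the reference (23.7% and 12.2%), and their values are uncertain. At the other antigen receptor loci none was gained among 10 tested bins of Igk, 67 of Tcra and Tcrd, 31 of Tcrb and 3 of Tcrg, where the median log2 ratios were 0.23, -0.14, -0.083 and -0.39. With so few tested bins, a share of 0.566% gives less than 1 gained bin at each. The B cell marker promoters, given above, had a ratio of 0.921, and 3 of the 10 genes were higher in aged HSCs. After these came Kcnn2, Nav2 and Rhbdl2 with 5 gained bins each. In the Kcnn2 bin at chr18:45268001-45268500, 12.4% of 50-mers were repeated in the reference. Apart from the receptor loci, tested bins were not counted for the genes in this ranking. A gene with more tested bins can have more gained bins, so nothing is read from the order.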

How the data were processed

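Single-cell ATAC-seq of sorted HSCs was analysed from 1 library for each age. Per the labels, the authors processed the reads with Cell Ranger ATAC on mm10, and the deposited fragment files and barcode tables hold raw counts: read pairs per fragment with its position and barcode, and fragments per barcode with cell calls. Here each fragment was counted once, whatever its number of read pairs. Kept cells were called cells with 3000 to 20000 in-peak fragments, and FPM are fragments per 1000000 kept fragments of the library. The study's other cell filters were not applied. Levels were not corrected for the depth of a cell, except where thinning (fixed seed) is named.

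The members, gene lists and motifs were chosen with earlier results of these data known. With 1 library per age no test was made. Intervals are exact binomial at 95%, those of ratios being the interval of the aged share of the 2 counts, and fragments are not independent molecules of separate mice. Annotation is GENCODE M21, sequence GRCm38 (RefSeq), and motifs were fixed consensus letters searched on both strands, overlaps allowed. Consensus sequences of 8 or more letters are given by name only. The sequence of 1 named bin is not reported here. Of the study's supplementary lists only coordinates, direction, class and gene symbols were used. A gene is matched to a bin by its nearest protein-coding TSS or by overlap with the bin centre. Bins were named by rule: the 10 of highest ratio, the 10 with the most aged fragments, up to 10 within 1 kb of a protein-coding TSS, up to 5 per gene list, and the 5 stretches of 10 kb with the most gained bins. The bin rule and the searches were tested on simulated data. Python 3.11.15, NumPy 2.4.6, pandas 2.3.3, SciPy 1.17.1 and matplotlib 3.10.9 were used.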

Additional observations from a re-analysis of the deposited data

Results flagged for a closer look

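Barcodes outside the kept cells, which played no part in choosing the bins, showed a higher share of fragments in gained bins in the aged library as well. In called cells with fewer than 3000 in-peak fragments the share was 7.70 of every 10000 fragments in young (129 cells) and 25.1 in aged HSCs (171 cells), a ratio of 3.27 (2.88 to 3.72). In called cells with more than 20000 it was 6.80 (12 cells) and 25.7 (118 cells), a ratio of 3.78 (3.33 to 4.32). In barcodes not called as cells it was 5.72 and 12.3, a ratio of 2.16 (2.05 to 2.28). All 3 were above the young library, which was the control here, and come from the same 2 libraries, so they are no replicate of age.

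The X chromosome, which the rule leaves out, held 4 bins with a ratio of 3 or more among 2923 with at least 100 fragments (0.137%, against 0.566% on the autosomes), and 1 lost bin. The highest ratio there was 13.1, in a bin with 10 young and 110 aged fragments. The 4 bins had 32 and 79, 43 and 126, 10 and 110, and 32 and 85 fragments.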

How the results depend on the processing

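The number of gained bins follows the limits of the rule. It was 2403 with a minimum of 50 fragments, 213 with 200, 3043 with a ratio of 2, 367 with a ratio of 4, and 521 with subnucleosomal fragments only, where fewer bins reached the minimum. Under the other 8 planned settings it was between 562 and 1026. Under some settings the members changed as well. Of the 1026 bins after thinning, 554 (54.0%) were among the 814, which is 68.1% of these. Cells with 5000 to 15000 in-peak fragments kept 63.5% and subnucleosomal fragments 50.7% of the 814. Where only the pseudocount, the scaling, the ratio or the minimum was changed, 1 list held the other. All 814 were kept with a minimum of 50 fragments and with a ratio of 2. The share of gained bins in open DARs was 10.9% with a minimum of 50 fragments, 42.3% with 200, 11.2% with a ratio of 2, 28.9% with a ratio of 4, 27.9% in cells with 5000 to 15000 in-peak fragments, 28.8% with subnucleosomal fragments, 17.7% after thinning each cell to 3000 fragments with the minimum set to 30 (2 changes at once), and 18.3% by bin centres. The AP-1 share was 19.02% and 26.8% with minimums of 50 and 200 fragments, 20.3% with a ratio of 2, and 18.6% within 100 bp of the position of most cut sites. The TSS share was 9.21% with protein-coding TSSs. Without the 30 bins with over 10% of repeated 50-mers, a setting added after seeing the data, the DAR, TSS and AP-1 shares were 23.1%, 12.6% and 24.0%. The flank ratio was 1.17 at 3 to 10 kb and 1.08 at 10 to 50 kb. Read in cells that did not choose the bins, the median log2 ratio was 1.77. That value is of the 939 bins chosen in the other cells, of which 653 are among the 814. Of 159 values of the 20 bins with the highest ratios or most aged fragments, 157 stayed within their counting intervals and none fell below 3.01. The 2 others were of the Naip6 bin, 43.5 with a pseudocount of 5 and 51.7 after thinning. Every setting recounts fragments of the same 2 libraries, so values within the intervals are no independent support for these ratios. Ratios of bins with under 10 young fragments are limited by depth, and their intervals are wide. With a pseudocount of 5 the ratio was 23.1 for the Ryr2 bin and 43.0 for the Kcna4 bin, and without a pseudocount 77.7 for both. All of these lie within the intervals. No paired analysis was possible because each age has 1 library.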
